A study of Mus musculus with 8 samples.

Results

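The genes described here are a set that was strongly higher in cells with an active *Zscan4* reporter, both in regular medium (RM) and in medium with retinoic acid (RA), and most of them carry only a gene model or clone name. They were chosen by measured values. Of the 128 probes that the study listed for their difference in RA, 109 were left after the best known *Zscan4* neighbours and some others were set aside by name, and 42 of these had a mean log2 ratio at least 3-fold higher in RM-Zscan4+ than in RM-Zscan4- cells. The array held 42006 probes in all. The comparison in RM chose the genes and the comparison in RA made the list they came from, so both are given as descriptions without a test.

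The cells were mouse embryonic stem cells (ESC) of a single transgenic line, in which the *Zscan4* promoter drives the green fluorescent protein Emerald, and every group came from it by sorting on that fluorescence. RM-Zscan4+ and RM-Zscan4- had 3 arrays each and were grown in the complete medium with leukemia inhibitory factor. RA-Zscan4+ and RA-Zscan4- had 1 array each and were grown with 1.5 μM retinoic acid, with sorting at day 5. Cy3 carried the RNA of the sorted cells and Cy5 a mouse reference RNA that all arrays shared, and each value below is the log2 ratio of Cy3 over Cy5 unless another scale is named. The labels call the RM arrays biological replicates. By the day on which software extracted the scanned images, RM replicates 1 and 3 shared an extraction batch and replicate 2 came from another. Both RA arrays had an extraction batch of their own, so medium and extraction batch cannot be told apart. This batch is not a record of RNA preparation. The probe labelled *Zscan4* itself stood at 5.03 to 5.59 on the RM-Zscan4+ arrays and at 0.10, 0.21 and 0.98 on RM-Zscan4- replicates 1, 2 and 3. It was at 6.13 in RA-Zscan4+ and at 1.88 in RA-Zscan4-. Because RNA of sorted populations was measured in bulk, fewer expressing cells and less RNA per cell cannot be told apart.

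As background, ESC cultures hold a small and transient fraction of cells that switch on *Zscan4*, a gene otherwise restricted to the late 2-cell embryo, together with other transcripts of the first wave of embryonic transcription. Many of these transcripts come from repeated gene families and retroviral elements that annotation describes poorly. The state is known for telomere elongation, and retinoic acid is a differentiation signal that acts through nuclear receptors.

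By roles assigned for this report, 5 members belong to DNA, chromatin and transcription, among them *Hmga2-ps1*, *Pif1*, *Rfxap* and *Hist1h4i*. Another pair are surface or secreted proteins (*Lgals4* and *Ly6h*), 1 is a motor protein (*Myo3a*) and 1 belongs to protein turnover (*Lonrf3*). The other 33 had gene model or clone names. Matching symbols, synonyms and the gene numbers inside the names to the RefSeq table of assembly GRCm38.p6 gave a current entry for 21 of the 42. Of these, 13 were protein coding, 5 were pseudogenes and 3 were long non-coding RNAs. Among the renamed ones, LOC381535 is now *Pramel18*, C130092O11Rik is *Ccser1*, *Hist1h4i* is *H4c9*, and 1700066J24Rik is the antisense transcript *Fam219aos*. The labels LOC432715, LOC240895, EG668777 and EG624262 point to pseudogenes.

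The probes of 8 members shared a sequence feature that the rule had not used, a run of at least 9 bases of the repeated triplet AGC. The run had only 9 bases in 1700066J24Rik, 10 in *Hmga2-ps1* and 11 or more in the other members with it. A run was counted in any frame on the probe strand, and the feature was noticed after the values had been seen. The lines below show 30 of the 60 bases of probes from named genes, 5′ to 3′, with the longest run in capitals. *Cand1* and *Bbc3* are on the study's list and fell short of the threshold, and they are shown because they carry the same run.
*Pif1*: tgcattCAGCAGCAGCAGCAGtaggagcag
*Rfxap*: ttttacagaAGCAGCAGCAGCtactaaatc
*Ly6h*: caccgacccCAGCAGCAGCAGgaaggatca
*Myo3a*: aaggatcaaAGCAGCAGCAGggtaacctct
1700001F09Rik: actatactaAGCAGCAGCAGttttacactt
*Hmga2-ps1*: ggaAGCAGCAGCAagagccaacctcctaag
1700066J24Rik: cagaccagacCAGCAGCAGaagcaacagca
*Cand1*: gaattgttgAGCAGCAGCAGgagacaatgg
*Bbc3*: aggAGCAGCAGCAaggtgcctcaatagcaa

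A run of 11 or more bases occurred in 9 of all 42006 probes. These were 6 members (*Pif1*, *Rfxap*, *Ly6h*, *Myo3a*, 1700001F09Rik and LOC385201), the listed *Cand1* and LOC631120, and the unlisted probe Z00064868-1, which neither the list nor the rule had chosen. All 9 were higher in Zscan4+ cells in both media, by 0.88 to 4.12 on the log2 scale in RM and by 2.82 to 4.41 in RA. The 6 members and the 2 listed probes were chosen for such differences, so their values are a description, and only Z00064868-1 stands outside the choice. Z00064868-1 read 0.84, 1.36 and 0.48 on the RM-Zscan4+ arrays and -0.51, -0.61 and -0.49 on the RM-Zscan4- arrays, so these did not overlap. The same probe stood at 2.86 in RA-Zscan4+ against -0.53 in RA-Zscan4-, a difference of 3.39. *Cand1*, which assembles cullin ubiquitin ligases, differed by 1.36 in RM with every spot used and by 1.77 once a spot with an outlier flag was dropped, which moves it from outside to inside the threshold.

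Shorter runs of the same triplet were mostly not accompanied by a difference. The 121 probes with a run of 8 bases had a median difference of -0.03 in RM and 0.03 in RA, and 0 of them were 3-fold higher in either medium, where 0.291% of all probes were so in RM. Of 32 probes with a run of 9 bases, 1700066J24Rik was the only one 3-fold higher in RM, with 2.57, and in RA the listed D3Ert4731e, with 1.67, was the only other. Runs of 10 bases fell apart by frame. The 3 probes that held CAGCAGCAGC without the next base differed by -0.32 to 0.14 in RM and by -0.38 to -0.13 in RA. The 12 probes that held AGCAGCAGCA, with the 9 longer ones counted among them, were higher by at least 0.41 in RM and at least 0.69 in RA. Most of these 12 were members or listed probes, chosen for such differences. Only Z00064868-1 and Z00003891-1 were unlisted, and Z00003891-1 had the lowest values, 0.41 and 0.69. All 3 probes of the other frame were unlisted, so the split by frame is in large part one between chosen and unchosen probes.

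**Figure D1:**
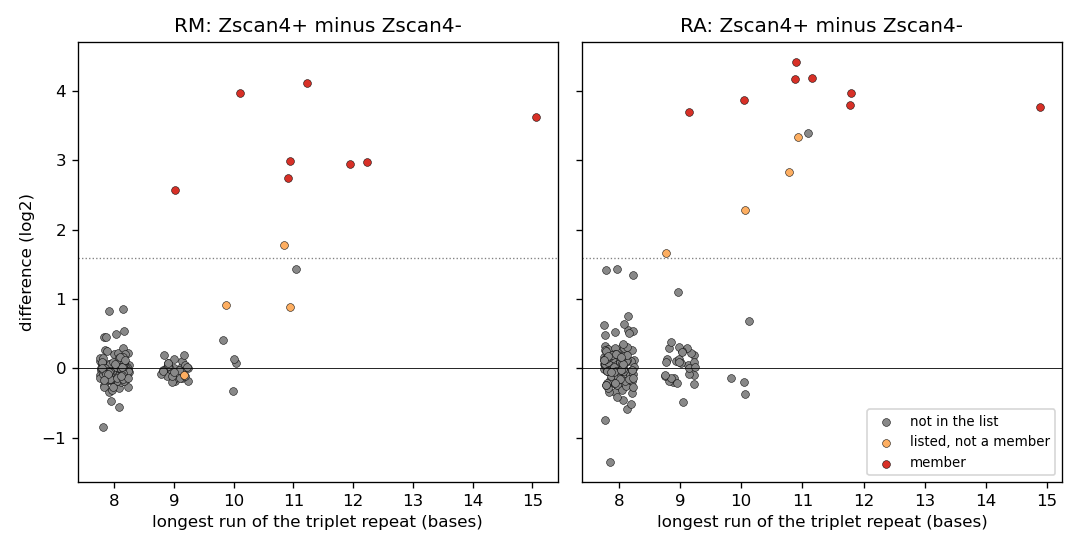
Difference between Zscan4+ and Zscan4- (y axis, log2 ratio) against the longest run of the triplet repeat in the probe (x axis, bases, spread sideways for legibility) in RM (left, means of 3 arrays a group) and RA (right, 1 array a group), for each probe of the array with a run of 8 bases or more. The dotted line is 3-fold. In RM, probes with runs of 8 or 9 bases lie between -0.85 and 0.85 apart from 1 member, and the 9 probes with 11 or more bases all lie at 0.88 or above.

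Runs of other letters were not accompanied by such differences. Runs of 11 or more bases of the opposite strand, CTG, were present in 10 probes, of which 0 were 3-fold higher in RM, with a highest difference of 0.49. Over all 19 other triplets, 139 such runs were counted and 0 came from a probe 3-fold higher in RM or RA. The highest difference among them was 1.19 in RM. Whether the signal of the probes with the AGC run comes from the gene each is named for, or from a transcript that shares the run, was not tested.

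A second feature was near-identity between the probe of a member and another probe of the array. With at least 80% identical bases over at least 24 aligned bases, 9 members had such a partner. Partners were searched for the members only, so the share among all probes is not known. Capitals mark the bases that are equal in the partner, over the first 30 bases of each probe.
LOC669397: CTCAAcGATTGATACACgACcAAGACCTGC
EG624262: CTCAAaGATTGATACACaACgAAGACCTGC
LOC381535: AcGAGTATGTGAGGCTATGCTGTCTGAAaA
*Gm12794*: AtGAGTATGTGAGGCTATGCTGTCTGAAgA
The LOC669397 and EG624262 probes agreed at 56 of 60 bases, and their differences in RM were 2.84 and 1.83. Both, and EG667568 with 2.97, also resembled the probe of *Gm4340* over 44 to 48 aligned bases. LOC381535 (*Pramel18*, of the PRAME-like family of leucine-rich repeat proteins) and *Gm12794* shared 52 of 60 bases, with 3.03 and 4.12. LOC432590 shared 33 of 37 aligned bases with *Tmem92*, a transmembrane protein gene, and these differed by 3.20 and 4.56. 1700001F09Rik shared 21 of 24 aligned bases, the triplet run among them, with the listed LOC631120, and these differed by 4.12 and 0.88. Whether transcripts this similar hybridise to each other's probes was not tested.

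Among the partners were 3 unlisted probes, which neither the rule nor the list had chosen. Z00061010-1 was identical to LOC665446 over 24 bases and was higher by 4.36 in RM and 5.04 in RA. Z00060365-1, identical to LOC627530 at 40 of 50 bases, was higher by 2.10 and 1.28. The partner of EG666099, Z00064005-1, matched at 25 of 29 bases and differed by -0.15 and 0.40, where EG666099 differed by 2.08 and 3.08.

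In RM the members stood apart from the rest of the array, as the rule requires. Their median difference was 2.96, or 7.81-fold, with a range from 1.65 to 4.83, where the median of all probes was -0.01. For all 42 members the lowest RM-Zscan4+ array lay above the highest RM-Zscan4- array, which 4.97% of all probes did, and the choice of members fixes this count. Just inside the threshold of 1.58 were EG624262 at 1.83 and BC080695 at 1.65. Just outside it were 4631416L12Rik at 1.58, *Hspa1a*, an inducible heat shock protein, at 1.57 and *Ercc4*, a nuclease subunit of DNA repair, at 1.55.

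**Figure D2:**
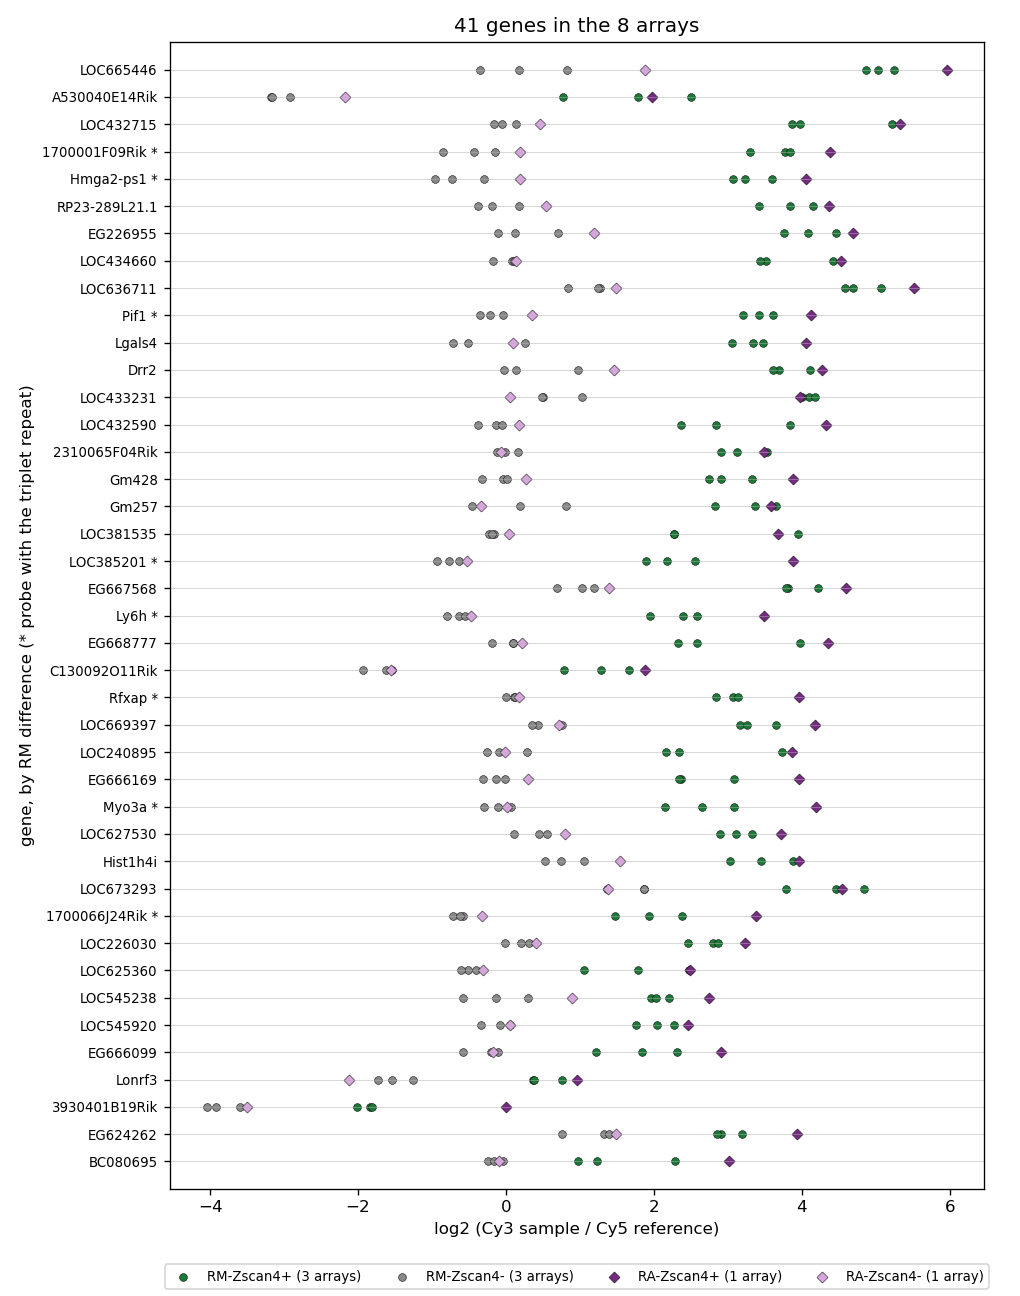
Log2 ratio of Cy3 sample over Cy5 reference (x axis) of 41 of the 42 members (y axis, ordered by the RM difference) on each of the 8 arrays, with 1 point an array. Green circles are RM-Zscan4+, grey circles RM-Zscan4-, purple and pink diamonds RA-Zscan4+ and RA-Zscan4-, and an asterisk marks a probe with a run of 9 or more bases of the triplet repeat. In every row the green points lie right of the grey ones, and the purple diamond lies right of all 3 green points in 35 rows.

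The largest difference was that of LOC665446, a gene model without a current entry. It read 5.03, 5.25 and 4.87 in RM-Zscan4+ (SD 0.19, n = 3) and 0.18, -0.35 and 0.83 in RM-Zscan4- (SD 0.59, n = 3). The difference was 4.83 (28.4-fold), on the comparison that chose the gene. In RA the values were 5.97 and 1.87. Both RA values were above those of the same fraction in RM.

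A530040E14Rik, a long non-coding RNA, had the next largest difference and was far below the reference in negative cells. The RM-Zscan4+ arrays read 1.79, 2.50 and 0.77, and the RM-Zscan4- arrays -3.17, -3.16 and -2.92, a difference of 4.77. RA-Zscan4+ and RA-Zscan4- stood at 1.97 and -2.17. The positive replicates covered a wide range for this gene (SD 0.87), and the negative ones a narrow one (SD 0.14). LOC432715, a pseudogene in the current table, had values of 3.98, 5.22 and 3.86 in RM-Zscan4+ against -0.17, -0.05 and 0.13, and of 5.33 against 0.47 in RA.

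In the group of DNA, chromatin and transcription, *Pif1* encodes a helicase that unwinds DNA and displaces telomerase from chromosome ends. Its probe read 3.42, 3.61 and 3.21 in RM-Zscan4+ and -0.21, -0.35 and -0.03 in RM-Zscan4-, and the difference was 3.62 in RM and 3.76 in RA. *Hmga2-ps1* is a transcribed pseudogene of the chromatin architectural gene *Hmga2*. It was at 3.23, 3.60 and 3.07 against -0.73, -0.96 and -0.30, with a difference of 3.96 in RM and 3.86 in RA. The processed Cy5 reference was also higher on the Zscan4+ arrays, by 1.26 in RM and 2.22 in RA for *Pif1*. For *Hmga2-ps1* it was higher by 1.00 and 2.13. On Cy3 alone the differences were 4.89 in RM and 5.94 in RA for *Pif1*, and 4.98 and 5.96 for *Hmga2-ps1*. The probes of both genes are among those with the triplet run shown above. Their RM replicates did not overlap between the sorted fractions, which the choice fixed for all 42 members.

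*Rfxap* encodes a subunit of the RFX complex, which activates MHC class II promoters. Its RM-Zscan4+ values of 3.07, 3.13 and 2.84 and its RM-Zscan4- values of 0.11, 0.12 and -0.0049 had the smallest spread among the members with a known role. The difference was 2.94 in RM and 3.79 in RA. *Hist1h4i*, 1 of several genes for histone H4, was at 3.45, 3.88 and 3.02 against 0.52, 0.75 and 1.05, and its difference was 2.67 in RM and 2.43 in RA. Here the negative cells lay above the reference on every array.

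Of the surface and secreted proteins, *Lgals4* encodes galectin-4, a lectin of gut epithelium. It read 3.34, 3.47 and 3.06 in RM-Zscan4+ against -0.51, -0.72 and 0.25, and 4.06 against 0.09 in RA. The differences were 3.62 and 3.96. *Ly6h*, a GPI-anchored protein known from brain, was at 2.39, 2.58 and 1.94 against -0.64, -0.80 and -0.55 in RM, and at 3.49 against -0.47 in RA. The triplet run is in the *Ly6h* probe and not in that of *Lgals4*.

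*Myo3a* encodes a class III myosin of sensory cells that carries a kinase domain. The probe read 2.64, 3.09 and 2.15 in RM-Zscan4+ against -0.10, -0.29 and 0.07, and 4.19 against 0.02 in RA. *Lonrf3*, a RING finger protein, was low relative to the reference in negative cells. It read 0.37, 0.76 and 0.37 in RM-Zscan4+, -1.26, -1.74 and -1.54 in RM-Zscan4-, and 0.96 and -2.13 in RA, with a difference of 2.01 in RM and 3.09 in RA.

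Replicates did not contribute equally. Taken as pairs of the same number, the members' median difference was 2.92 in pair 1, 3.53 in pair 2 and 2.47 in pair 3. Pair 2 was the highest of the 3 in 40 members and pair 3 the lowest in 37. Each of the 42 was 3-fold or more higher in pair 2, and 39 were so in pair 1 and in pair 3. EG624262 and BC080695 were among the exceptions in both.

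Part of this lay in the RM-Zscan4+ array of replicate 2, the one from another extraction batch. It had the highest value of the 3 in 41 of the 42 members, with LOC545238 as the exception, and its median excess over the mean of replicates 1 and 3 was 0.51, against -0.02 for all probes. In 8 members the excess was over 1, a size that 0.498% of all probes reached. These were LOC381535, EG668777, LOC240895, LOC432715, LOC432590, A530040E14Rik, BC080695 and LOC625360. LOC381535 had 2.27 and 2.27 on replicates 1 and 3 and 3.95 on replicate 2, while its RM-Zscan4- arrays stayed between -0.24 and -0.16. No probe with the triplet run was among the 8.

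The negative fraction varied too. RM-Zscan4- replicate 3 gave the highest of the 3 negative values in 30 of the 42 members, as did 35.3% of all probes. This is the RM-Zscan4- array on which the *Zscan4* probe read 0.98. The part of positive cells left in a negative sort was not tested.

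**Figure D3:**
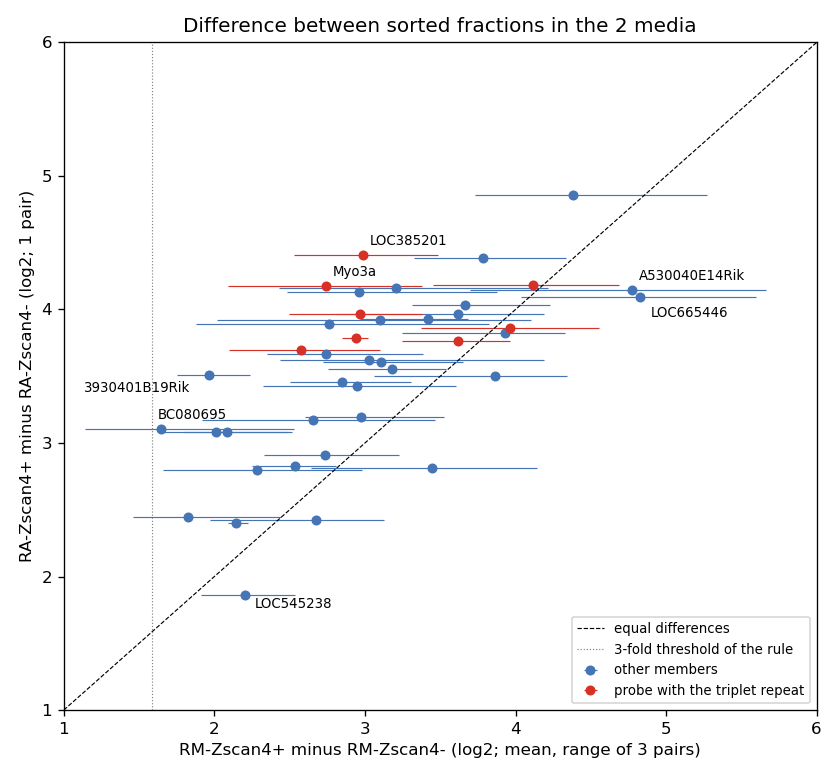
Difference between the sorted fractions in RA (y axis, log2 ratio, 1 pair) against that in RM (x axis, log2 ratio, mean with a bar from the lowest to the highest of 3 pairs) for 41 of the 42 members. Red points have a run of 9 or more bases of the triplet repeat in the probe, the dashed line marks equal differences and the dotted line the 3-fold threshold. Above the dashed line lie 33 points and below it 8.

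In RA the median difference of the members was 3.65, or 12.5-fold, with a range from 1.87 to 4.86, and all 42 were 3-fold or more higher, which holds for 0.486% of all probes and follows from the list. With 1 array for each RA group there was no replicate check. The RA difference was above that of each RM pair in 19 members, within the range of the 3 pairs in 22 and below it in 1, LOC545238, at 1.87. The RA and RM comparisons use different arrays.

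The excess of the RA difference over the mean RM difference was widest for 3930401B19Rik, with 3.51 against 1.97. BC080695 followed with 3.11 against 1.65, *Myo3a* with 4.17 against 2.74, LOC385201 with 4.41 against 2.99 and EG668777 with 4.13 against 2.96. EG668777 was not above the negative controls in Cy3 on any RM-Zscan4- array, and with normexp its values were 3.07 against 1.91. For 3930401B19Rik the reference channel was saturated on all 8 arrays, so its ratio follows Cy3 over a fixed ceiling and its negative values give no level. On Cy3 alone the differences of this gene were 1.95 in RM and 3.51 in RA. In the opposite direction on the ratio, LOC665446 differed by less in RA than in RM, with 4.09 against 4.83, followed by Drr2 with 2.81 against 3.45, A530040E14Rik with 4.15 against 4.77, EG226955 with 3.50 against 3.86 and LOC545238 with 1.87 against 2.20. On Cy3 alone the direction turned for LOC665446 (6.35 in RA against 5.69 in RM), Drr2 (7.12 against 6.47) and EG226955 (6.49 against 5.71), and with normexp it turned for LOC545238 (1.52 against 1.47). For A530040E14Rik it held under both. These are the members at the extremes, chosen by size, and no test of the difference between media was made on them.

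For Drr2, EG226955 and LOC665446 the reference channel changed as well. Net of local background, Drr2 had a Cy5 signal of 2623, 1983 and 2107 units in RM-Zscan4+ replicates 1 to 3, against 215.0, 177.9 and 403.9 units in RM-Zscan4-, although the same reference RNA was applied. In RA the positive array had 9247 and the negative one 428.3. LOC665446 had 2007 units of Cy5 in RA-Zscan4+ and 385.5 in RA-Zscan4-. Over the members, processed Cy5 was higher in RM-Zscan4+ in 33 of 42, by a median of 0.24 on the log2 scale, and in RA-Zscan4+ by 0.73. Over all 42 members, the median difference in processed Cy3 was 3.22 in RM and 4.41 in RA. The cause was not tested.

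A further question was whether the members differed between media when both sorted fractions are averaged. This contrast, RA minus RM over Zscan4+ and Zscan4- together, was tested with limma over all probes. It uses the arrays that also chose the genes, and it is free of that choice only where both fractions vary alike. LOC381535 varied more in RM-Zscan4+ (SD 0.97 against 0.037) and LOC665446 more in RM-Zscan4- (SD 0.59 against 0.19). The shares below are therefore not free of the choice. Of the 42 members, 14 were higher in RA at an adjusted p under 0.15 (limma), or 33.3%, where 5.23% of all probes were. None was lower, where 6.7% of all probes were, and 0 were lower at an unadjusted p under 0.05. The median over the members was 0.62, against -0.01 over all probes, and 38 of the 42 were above 0.

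The count depended on how the sorted pairs were treated. Positive and negative arrays of the same number deviated together, and with each pair as a random block only 2 members were called, 3930401B19Rik (adjusted p = 0.054, limma) and *Rfxap* (adjusted p = 0.10, limma), where 2.21% of all probes were. The reference channel of 3930401B19Rik was saturated on all 8 arrays. On Cy3 alone, without the block, neither was called, with 0.94 for 3930401B19Rik (adjusted p = 0.25, limma) and 1.15 for *Rfxap* (adjusted p = 0.17, limma). Without the block the count fell to 6 on leaving out RM-Zscan4+ replicate 1, to 7 without RM-Zscan4- replicate 1 and to 8 without RM-Zscan4- replicate 2, and it rose to 27 without RM-Zscan4+ replicate 2. The share of all probes called in these fits is not given here, so a change over the whole array cannot be told apart. The RA side rests on 1 pair, from an extraction batch of its own.

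**Figure D4:**
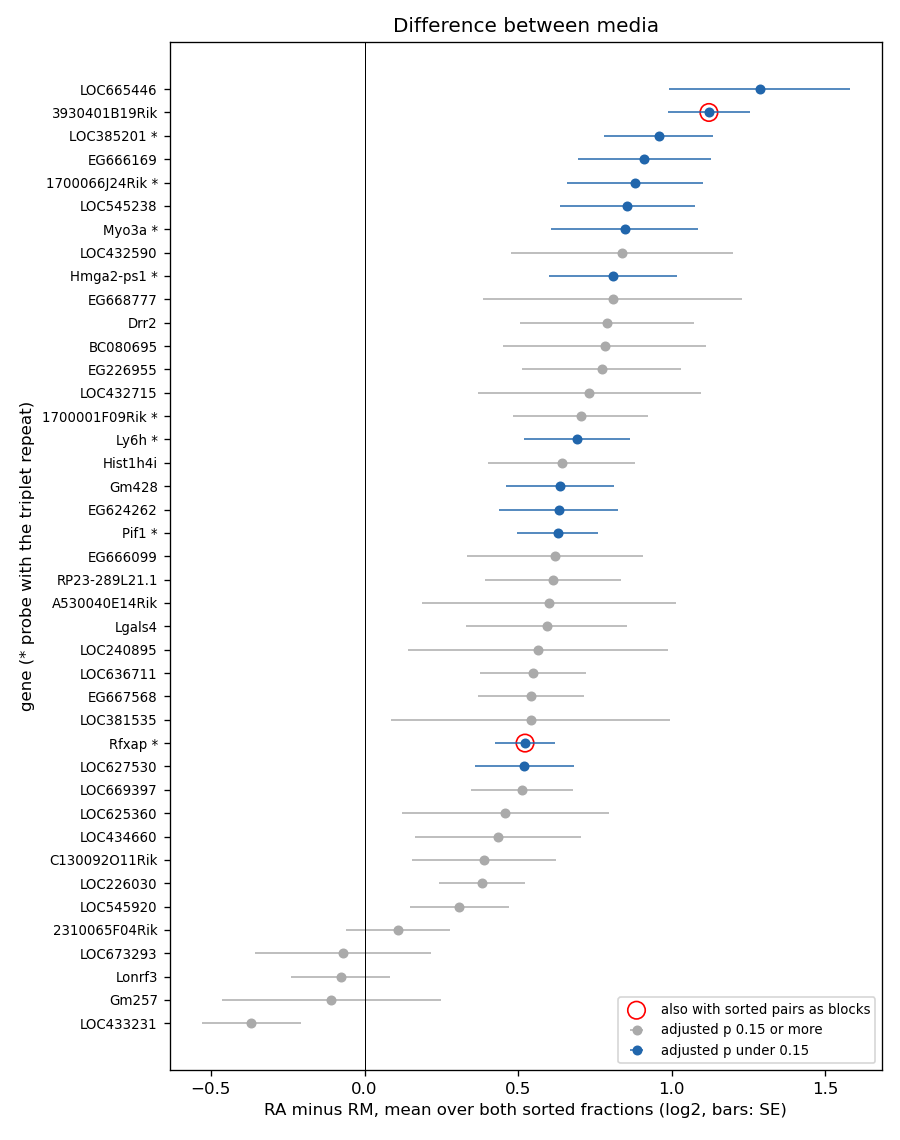
Difference between media, RA minus RM averaged over both sorted fractions (x axis, log2 ratio, bars: SE of the limma fit), for 41 of the 42 members (y axis, ordered by size). Blue points have an adjusted p under 0.15, red rings mark the calls that hold with sorted pairs as random blocks, and an asterisk marks a probe with the triplet run. There are 37 points right of 0, 14 of them blue and 2 of these ringed.

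The 5 largest of the 14 were LOC665446 at 1.29 ± 0.29 (SE), 3930401B19Rik at 1.12 ± 0.13 against a saturated reference, LOC385201 at 0.96 ± 0.18, EG666169 at 0.91 ± 0.22 and 1700066J24Rik at 0.88 ± 0.22. Of the members with a known role, *Pif1* was higher by 0.63 ± 0.13 (adjusted p = 0.059, limma), *Rfxap* by 0.52 ± 0.097 (0.044), *Ly6h* by 0.69 ± 0.17 (0.089), *Hmga2-ps1* by 0.81 ± 0.21 (0.095) and *Myo3a* by 0.85 ± 0.24 (0.12). *Hist1h4i* (0.64 ± 0.24), *Lgals4* (0.59 ± 0.26) and *Lonrf3* (-0.08 ± 0.16) did not pass. The remaining calls were *Gm428*, LOC627530, LOC545238 and EG624262. The lowest value was that of LOC433231, -0.37, which did not pass.

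Members with the triplet run made up 7 of the 14 calls, out of 8 such members, and the other 34 members made up the other 7. Over all probes 5.23% were called higher. With the sorted pairs as random blocks, 1 of the 8 and 1 of the 34 were called, where 2.21% of all probes were. The share among other probes with the run is not given here. The median difference between media was 0.76 in members with the run and 0.58 in the other members. The probe of *Zscan4*, the gene whose promoter drove the fluorescence used for sorting, differed by 1.17 ± 0.27 (adjusted p = 0.073, limma) in the same direction. How much of the members' difference goes with that of *Zscan4* was not tested.

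The list used the RA arrays and the rule the RM arrays, so counts split by fraction are a description and not free of the choice. RA-Zscan4+ lay above all 3 RM-Zscan4+ arrays in 36 members, as did 27.1% of all probes. It lay below all 3 only for LOC433231, as did 30.0% of all probes. The median difference was 0.74. RA-Zscan4- lay above all 3 RM-Zscan4- arrays in 30 members (27.5% of all probes) and below all 3 in LOC433231 and *Lonrf3* (31.8% of all probes), with a median difference of 0.28. The medians over all probes were -0.01 and -0.02. LOC433231 was thus the member that was lower in both fractions in RA, by 0.11 and 0.63, yet it kept a difference between fractions of 3.42 in RM and 3.93 in RA.

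Signal was adequate for most members. In RM-Zscan4- cells, 37 of the 42 exceeded the 95th percentile of the negative control probes in Cy3 on all 3 arrays. *Gm257* and EG668777 did so on none of them, so their difference in RM is bounded by background on the negative side, and LOC625360, LOC545238 and LOC545920 did so on only some. In RM-Zscan4+ all 42 were above it on every array. The reference was above the same percentile in Cy5 on all 8 arrays for 40 members, the exceptions being *Gm257* and EG668777.

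Promoters, from 250 bases before to 50 after the start in the RefSeq table of GRCm38.p6, were given for 10 members, and they were searched on both strands. AGGTCA, the core element of retinoic acid receptors, was found in 2, A530040E14Rik and *Gm428*, and in 16.3% of all 32851 promoters. The same element as a direct repeat spaced by 5 bases was found in 0 of the 10. TGCACAC, a motif bound by ZSCAN4, was found in *Lgals4* only (4.4% of all promoters). TATAAA was found in 4, 2310065F04Rik, *Gm428*, *Hist1h4i* and *Lonrf3* (13.6% of all promoters). A match is a run of letters and says nothing about binding.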

How the data were processed

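RNA of sorted cells was measured on 8 two-colour Agilent arrays. Per the file headers, the authors deposited intensity values from Feature Extraction A.7.5.1, subtracted for background and dye-normalized within the array, and a series matrix of log10 values. The log2 ratio of processed Cy3 over Cy5 was computed here. Spots with outlier flags were dropped after the members had been found with every spot. Group means were fitted with limma 3.58.1 (R 4.3.3), and p-values were adjusted by Benjamini-Hochberg with calls at 0.15, the rate of the study's methods, and 3-fold as the fold threshold. The fit was tested on simulated data. The median probe had 114.5 to 241.1 units of Cy3 above local background, and the number of arrays limits precision. Same-numbered RM arrays deviated together (correlations 0.388, 0.562 and 0.592), and were treated as pairs on that ground. Arrays of different numbers were not compared. Replicate 2 of both fractions came from another extraction batch, so pairing and batch cannot be told apart by these correlations. The members and gene lists were chosen with earlier results of these data known. Of the members, those with a role were named, besides the 5 largest RM differences, the 5 largest and 5 smallest differences between the RA and RM values, the 3 on either side of the threshold and the 5 largest calls for medium. Probe sequences came from the scanner files. Probe names beyond the study's list were not used here, nor were markers of other cell types. The values of 1 member are counted but not reported here.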

Additional observations from a re-analysis of the deposited data

How the results depend on the processing

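The number of members called higher in RA over both fractions, 14 in the fit as reported, was 3 at a false discovery rate of 0.05, 23 with normexp and loess, 24 with RM arrays of the first extraction batch only and 0 with the methods' t-statistics, by which 7 members had an unadjusted p under 0.05. With the sorted pair as a random replicate block (correlation 0.453) it was 2, and 12 of the 14 calls were lost. Leaving out 1 RM array at a time gave 6 to 27 calls. The share of all probes called higher is given only for the fit as reported (5.23%) and the random block (2.21%). Whether the other counts differ from the whole array therefore cannot be told. In an alternative chosen after seeing the data, which set aside the 8 members whose probes hold the triplet run, 7 of 34 were called. On Cy3 alone 14 were called, 9 of them shared with the ratio, and neither *Rfxap* nor 3930401B19Rik was among these. No member was called lower under any alternative that gave calls. The second extraction batch alone has no residual degrees of freedom and gave no calls.

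The median difference between media, 0.62, was 0.95 on Cy3 alone and 0.46 with RM arrays of the second batch only, and 0.53 to 0.73 on leaving out 1 RM array. The median RM difference of 2.96 was 3.53 with the second batch only and was unchanged by a fixed replicate block. The median RA difference of 3.65 was 4.38 on Cy3 alone. The number of members was 73 at 2-fold and 38 at 4-fold, 43 with flagged spots dropped, 49 on Cy3 alone and 39 with normexp and loess. None of the 25 named RM and RA differences changed sign, but the members had been chosen for large positive differences on the same arrays. Leaving out an RA array was not run, since it removes the group. Low signal limits *Gm257* and EG668777, and saturation of the reference limits 3930401B19Rik. The cause of these changes was not tested.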
